A study of Mus musculus with 6 samples.

Results

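The 39 genes described here mark macrophages and other antigen-presenting cells. They were found by symbol in a table of 54385 rows of estimated counts, and each symbol matched a single row. The libraries, 6 in all, were made from brown fat of the interscapular depot, a heat-producing tissue between the shoulder blades, of C57BL/6N mice kept for 24 hours at 5 °C after 20 weeks on chow. The 3 knockout libraries (AdKO) came from mice with floxed Adcy3 alleles (Adcy3-FL/FL) with Adipoq-Cre (Adipoq-wt/cre), and the 3 control libraries (WT) from mice with the same floxed alleles and no Cre (Adipoq-wt/wt). Both groups were therefore cold-exposed and floxed, and they differed by the Cre. Adcy3 encodes adenylyl cyclase 3, which makes cyclic AMP, and the Adipoq promoter drives Cre in adipocytes. The series' design text gives an age of 20 weeks, but it names inguinal rather than interscapular fat and 4 replicates and does not mention cold; the sample labels were followed for these.

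Macrophages are phagocytes that live in every tissue, take up debris and lipid, and are replenished from blood monocytes or by local division. In adipose tissue, resident macrophages typically carry scavenger receptors such as CD163 and the mannose receptor CD206 (Mrc1), whereas macrophages around dying or overloaded fat cells carry TREM2 and GPNMB. Macrophages, dendritic cells and B cells also present peptides on MHC class II molecules.

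Adcy3 stood at 21.9, 30.4 and 24.0 counts per 1000000 (CPM) in AdKO libraries 1 to 3, against 135, 169 and 158 CPM in WT libraries 1 to 3, so the targeted gene was low in each library labelled AdKO. Library totals ran from 13956786 to 17538044 estimated counts. Ucp1, the uncoupling protein that defines brown fat, was abundant in each library, at 7288 ± 264 CPM in AdKO and 5752 ± 316 CPM in WT (SD, n = 3 each). Skeletal muscle transcripts differed widely: 20 muscle markers made up 0.922%, 0.0724% and 0.00703% of counts in AdKO libraries 1 to 3, against 2.23%, 2.01% and 1.69% in WT libraries 1 to 3. AdKO library 1 thus held far more muscle RNA than the other AdKO libraries. It also carried the strongest trend on exon length and GC content, which took 14.8% of the variance of its deviations, against 1.14% to 4.13% in the other libraries. Over all 14767 genes tested, 5 were lower and 4 were higher in AdKO (edgeR quasi-likelihood test, Benjamini-Hochberg adjusted p under 0.05).

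The promoters of 5 members are printed because the results below turn on these genes: Cd163 and Mrc1, which stood lower in AdKO, and C1qc, H2-Aa and H2-Eb1, which varied between the libraries of a group. Each window runs from 250 bases before to 50 bases after the start of the gene in RefSeq (GRCm38.p6), 5′ to 3′ on the gene's strand. Capitals mark GGAAGT, a core of sites bound by the macrophage factor PU.1, and CCAAT, the core of the Y box of MHC class II promoters, each searched on both strands (ACTTCC and ATTGG on the other).
Cd163, chr6:124304401-124304700, plus strand: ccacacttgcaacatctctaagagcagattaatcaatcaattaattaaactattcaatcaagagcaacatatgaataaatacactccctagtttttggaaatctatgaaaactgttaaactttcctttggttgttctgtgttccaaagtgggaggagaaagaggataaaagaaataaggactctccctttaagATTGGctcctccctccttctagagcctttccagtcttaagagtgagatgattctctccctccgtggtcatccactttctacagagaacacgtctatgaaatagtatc
Mrc1, chr2:14229164-14229463, plus strand: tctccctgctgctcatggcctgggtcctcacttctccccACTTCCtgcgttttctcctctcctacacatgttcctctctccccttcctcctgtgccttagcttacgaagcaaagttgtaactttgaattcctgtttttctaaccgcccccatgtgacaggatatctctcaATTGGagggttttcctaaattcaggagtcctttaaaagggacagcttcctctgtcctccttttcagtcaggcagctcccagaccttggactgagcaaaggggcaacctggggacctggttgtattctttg
C1qc, chr4:136892865-136893164, minus strand: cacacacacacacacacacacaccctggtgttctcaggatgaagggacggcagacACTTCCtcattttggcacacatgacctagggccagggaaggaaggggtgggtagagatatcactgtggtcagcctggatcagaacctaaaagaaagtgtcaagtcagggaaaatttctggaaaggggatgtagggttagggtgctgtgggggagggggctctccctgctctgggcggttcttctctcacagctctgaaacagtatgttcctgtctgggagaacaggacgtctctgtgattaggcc
H2-Aa, chr17:34287774-34288073, minus strand: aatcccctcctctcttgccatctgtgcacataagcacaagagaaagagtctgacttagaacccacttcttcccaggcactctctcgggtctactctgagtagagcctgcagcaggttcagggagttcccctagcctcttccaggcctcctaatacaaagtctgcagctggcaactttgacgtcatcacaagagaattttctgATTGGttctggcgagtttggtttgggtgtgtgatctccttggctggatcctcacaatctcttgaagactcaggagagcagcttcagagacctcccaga
H2-Eb1, chr17:34305617-34305916, plus strand: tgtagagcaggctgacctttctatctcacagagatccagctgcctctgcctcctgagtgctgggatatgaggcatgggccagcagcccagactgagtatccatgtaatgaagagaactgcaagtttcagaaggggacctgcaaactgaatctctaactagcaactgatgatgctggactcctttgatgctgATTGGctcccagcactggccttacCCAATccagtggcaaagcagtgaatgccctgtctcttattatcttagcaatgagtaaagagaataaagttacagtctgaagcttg
The Cd163 window held CCAAT letters once and no GGAAGT. The Mrc1 window held each motif once. In the C1qc window the ACTTCC letters continue with TC, so it holds the longer word GAGGAAGT on the other strand. The H2-Aa window held CCAAT letters once and the H2-Eb1 window 2 times. Of the 39 members, 30 had a window in the table. GGAAGT was found in 15 of these 30, against 23.8% of all 32851 windows, CCAAT in 14 of 30, against 37.4%, and GAGGAAGT in 3 of 30, against 3.20%. A member counted if any of its windows held the letters, whereas the background counts single windows, so the shares are not like for like. GAGGAAGT contains GGAAGT, so these matches overlap. A match is a description of letters and not of a bound site.

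None of the 39 members passed the test across all genes, in either direction, although most stood lower in AdKO. Of the 33 members tested, 28 had a negative log2 fold change of AdKO over WT and 5 a positive one, against 48.3% negative among all genes tested. The median was -0.37 over the tested members and 0.01 over all genes. With 0 members called lower and 0 higher at an adjusted p under 0.05 (background 0.0339% lower and 0.0271% higher in edgeR), 6 members (18.2%) were lower and 0 higher at an unadjusted p under 0.05, where 7.60% of all genes were lower and 2.87% higher. DESeq2's Wald test called 1 member lower, Cd163, and none higher (background 1.87% lower and 0.210% higher). Without a low-count filter, 4 of 39 members were called lower, Cd163, Mrc1, Folr2 and Ccl6, and 0 higher (edgeR; background 2.45% lower and 0.348% higher). The 6 below an unadjusted p of 0.05 were Cd163, Mrc1, Lyve1, Clec10a, Gpnmb and Csf1r, and 4 of them belong to the resident and scavenger genes. In 2 members (6.06%), Cd163 and Gpnmb, every AdKO library lay below every WT library, and in none was every AdKO library above, where 10.8% of all genes lay below and 7.63% above in this way, so such separation was no more frequent among the members than among all genes. In whole tissue, fewer cells of a type and less RNA per cell cannot be told apart.

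**Figure D1:**
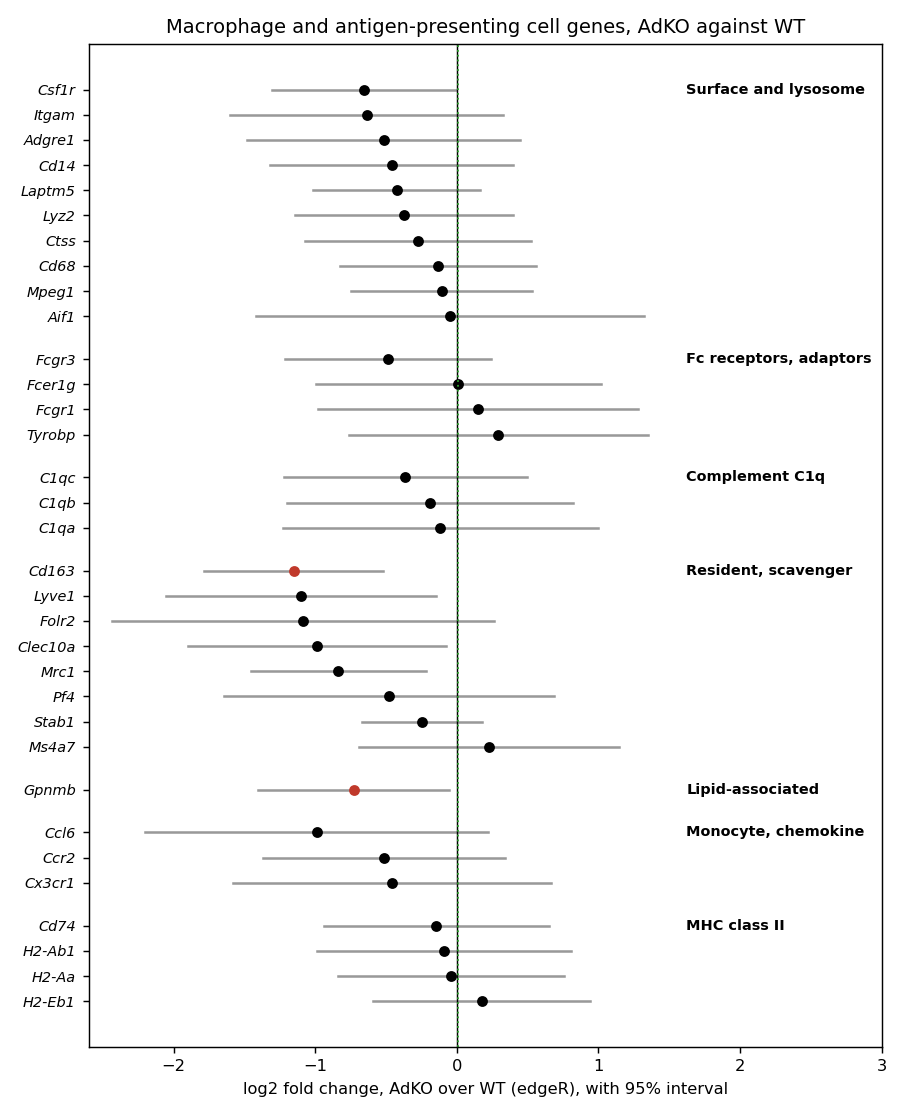
Log2 fold change of AdKO over WT (x axis, edgeR) for the 33 tested members, grouped by role, with 95% intervals as grey bars; red points mark the members whose groups do not overlap, the solid line is 0 and the dotted line is the median of all genes (0.01). The intervals of 6 members lie below 0, 4 of them in the resident and scavenger group, and the MHC class II genes sit around 0.

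Among the resident and scavenger genes most estimates were negative. Of 11 listed, 8 were tested, 7 with a negative log2 fold change (median -0.91, and -0.23 with the share of muscle markers as a covariate). Summed over the 11 genes, their level was 67.9, 60.8 and 53.0 CPM in AdKO libraries 1 to 3, against 94.0, 68.4 and 105.9 CPM in WT libraries 1 to 3. The highest AdKO sum thus lay just under the lowest WT sum, that of WT library 2. Stab1 was the largest part of the sum in each library. It gave 33.4, 40.6 and 32.9 CPM in AdKO libraries 1 to 3 and 36.3, 36.7 and 53.9 CPM in WT libraries 1 to 3, with overlapping groups. Without Stab1 the sum of AdKO library 1 lies above that of WT library 2, so the separation of the sums rests on Stab1.

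Cd163 (ENSMUSG00000008845, GRCm38 chromosome 6, 124304656 to 124330527, plus strand), a scavenger receptor for haemoglobin-haptoglobin complexes, stood at 6.89, 5.96 and 6.39 CPM in AdKO libraries 1 to 3, against 16.4, 8.55 and 17.9 CPM in WT libraries 1 to 3. The AdKO libraries lay close together and below all WT libraries, of which library 2 was the lowest. The log2 fold change was -1.15 ± 0.28 (SE), with a 95% interval of -1.79 to -0.52 (edgeR adjusted p = 0.205). The fold change was negative under every alternative run, from -1.44 to -0.99 when single libraries were left out. It passed the threshold with DESeq2 (adjusted p = 0.00623), without a low-count filter (edgeR adjusted p = 1.94e-05) and without AdKO library 1 (edgeR adjusted p = 0.0471), and the adjusted p reached 0.646 without WT library 1.

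Mrc1 (ENSMUSG00000026712, chromosome 2, 14229392 to 14332057, plus strand) encodes the mannose receptor, an endocytic receptor for sugar-bearing proteins. It stood at 10.2, 7.43 and 6.41 CPM in AdKO libraries 1 to 3, against 18.6, 9.87 and 14.4 CPM in WT libraries 1 to 3. Only AdKO library 1 and WT library 2 crossed, and the log2 fold change was -0.84 ± 0.27 (SE; edgeR adjusted p = 0.331). Lyve1, a hyaluronan receptor of perivascular macrophages and of lymphatic endothelium, stood at 3.05, 1.37 and 1.07 CPM in AdKO and 4.71, 3.04 and 3.98 CPM in WT. The groups met at AdKO library 1 and WT library 2, and the log2 fold change was -1.10 ± 0.41 (SE; edgeR adjusted p = 0.408). Of 7 listed lymphatic endothelial markers other than Lyve1, 5 were tested and all 5 had negative fold changes. The sum of all 7 was 13.1 to 14.4 CPM in AdKO and 17.8 to 18.1 CPM in WT. The part of these markers in the Lyve1 difference was not tested.

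The other resident genes were less uniform. Clec10a, a galactose-binding lectin of macrophages and dendritic cells, stood at 3.44, 1.67 and 2.07 CPM in AdKO, against 6.57, 2.77 and 4.96 CPM in WT. AdKO library 1 was above WT library 2 there, and the log2 fold change was -0.99 ± 0.40 (SE; edgeR adjusted p = 0.444). Folr2, a folate receptor of resident macrophages, stood at 4.39, 0.863 and 1.24 CPM in AdKO, against 5.90, 2.88 and 4.94 CPM in WT, so that AdKO library 1 alone overlapped the controls. Pf4, a chemokine made by platelets and resident macrophages, stood at 4.47, 1.04 and 1.47 CPM in AdKO, against 3.48, 2.81 and 3.42 CPM in WT. For Pf4, AdKO library 1 was the highest of the 6 libraries and the other AdKO libraries were the lowest. Stab1, a scavenger receptor that endothelial cells can also express, had overlapping groups and a log2 fold change of -0.24 ± 0.18 (SE). Ms4a7, a membrane protein of mature macrophages, had the only positive estimate of the group, at 0.23 ± 0.40 (SE).

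Of the 2 lipid-associated genes, Gpnmb was tested. Gpnmb, a membrane glycoprotein of lysosome-rich macrophages, stood at 1.89, 1.43 and 1.72 CPM in AdKO libraries 1 to 3, against 3.53, 2.23 and 2.61 CPM in WT libraries 1 to 3. The groups did not overlap, and the log2 fold change was -0.73 ± 0.29 (SE; edgeR adjusted p = 0.444). Trem2, the lipid-sensing receptor of this state, was too low to test, with 4 to 9 counts per library in AdKO and 5 to 14 in WT.

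**Figure D2:**
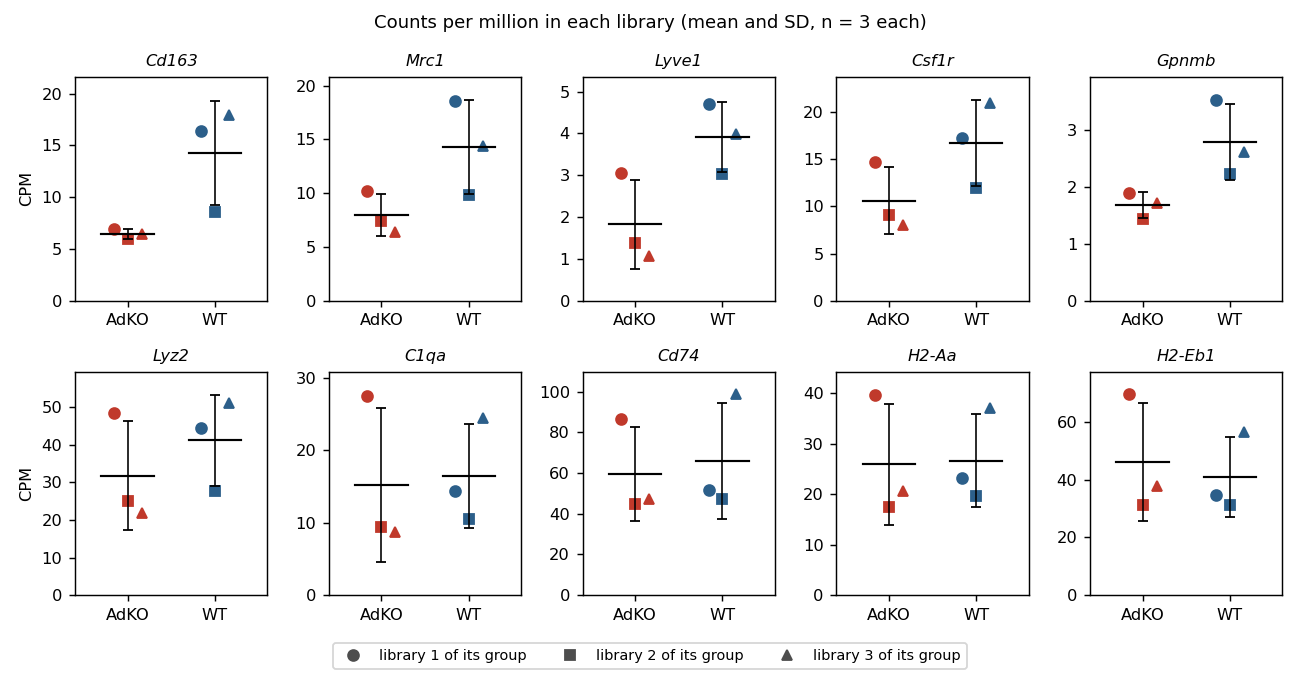
CPM (y axis, each from 0) of 10 members in AdKO and WT libraries; symbols mark library 1, 2 or 3 of its group, horizontal lines the mean and bars the SD (n = 3 each). Cd163 and Gpnmb show no overlap, whereas Cd74, H2-Aa and H2-Eb1 show 1 high library in each group, AdKO library 1 and WT library 3.

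The general macrophage genes all had negative estimates with wide intervals. Of 11 surface and lysosome genes, 10 were tested, and the 10 log2 fold changes ran from -0.66 to -0.05 (median -0.40). Csf1r, the receptor for the growth factors CSF1 and IL-34 on which macrophages depend, stood at 14.7, 9.14 and 8.03 CPM in AdKO, against 17.3, 11.9 and 20.9 CPM in WT. The AdKO library 1 value lay above WT library 2, and the log2 fold change was -0.66 ± 0.28 (SE; edgeR adjusted p = 0.477). Exons of Csf1r overlap those of Hmgxb3 on the opposite strand, by 873 bases in the longest single overlap. Adgre1, the surface protein known as F4/80, stood at 5.75, 3.26 and 2.44 CPM in AdKO, against 5.71, 3.04 and 7.64 CPM in WT, with overlapping groups. Itgam, the integrin chain CD11b, stood at 2.74, 2.54 and 0.928 CPM in AdKO, against 3.83, 2.29 and 3.49 CPM in WT (log2 fold change -0.64 ± 0.42, SE). Laptm5, a lysosomal membrane protein of blood-lineage cells, stood at 9.003, 6.25 and 5.82 CPM in AdKO, against 7.29, 8.84 and 12.2 CPM in WT (log2 fold change -0.43 ± 0.25, SE). The groups overlapped in both genes, and each was lowest in AdKO library 3. Cd68, a lysosomal glycoprotein used as a general macrophage stain, was nearer to 0, at 4.14 ± 1.57 CPM in AdKO and 4.55 ± 0.70 CPM in WT (SD, n = 3 each).

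Lyz2, the lysozyme of myeloid cells, was among the most abundant members, at 48.5, 25.0 and 21.9 CPM in AdKO, against 44.5, 27.7 and 51.3 CPM in WT. Its high and low libraries were split over both groups. Ctss, the protease cathepsin S that trims the MHC class II invariant chain, had a log2 fold change of -0.27 ± 0.35 (SE). Mpeg1, the pore-forming perforin-2, was at -0.11 ± 0.28 (SE), Cd14, the co-receptor for bacterial lipopolysaccharide, at -0.46 ± 0.37 (SE), and Aif1, the actin-binding protein IBA1, at -0.05 ± 0.59 (SE), the last on at most 1.22 CPM in any library.

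The Fc receptor genes showed no common direction. Fcgr3, a low-affinity receptor for immunoglobulin G, stood at 2.88, 3.87 and 1.99 CPM in AdKO, against 5.06, 3.05 and 4.15 CPM in WT, with overlapping groups. Its log2 fold change was -0.48 ± 0.32 (SE; edgeR adjusted p = 0.636). The adaptor Tyrobp (DAP12) stood at 3.32, 1.63 and 2.14 CPM in AdKO, against 2.00, 0.920 and 2.90 CPM in WT, and had the highest estimate of any tested member (0.29 ± 0.46, SE). The signalling chain Fcer1g stood at 3.99, 1.63 and 2.14 CPM in AdKO, against 3.06, 1.41 and 3.19 CPM in WT. The high-affinity receptor Fcgr1 stood at 1.22, 1.63 and 0.534 CPM in AdKO, against 1.41, 0.745 and 0.872 CPM in WT. Both overlapped, and their estimates lay within 1 standard error of 0 (0.01 ± 0.44 for Fcer1g and 0.15 ± 0.49 for Fcgr1). Tyrobp and Fcer1g carry the signals of many myeloid receptors, TREM2 among them for Tyrobp.

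The 3 chains of complement C1q, the recognition molecule of the classical pathway and in most tissues a product of macrophages, did not separate the genotypes. C1qa stood at 27.4, 9.39 and 8.66 CPM in AdKO libraries 1 to 3, against 14.3, 10.5 and 24.5 CPM in WT libraries 1 to 3. C1qb, encoded beside it on chromosome 4, stood at 21.8, 7.83 and 8.67 CPM in AdKO, against 15.4, 8.54 and 19.8 CPM in WT. C1qc, in the same cluster, stood at 16.9, 7.90 and 7.08 CPM in AdKO, against 13.4, 9.31 and 18.3 CPM in WT. All 3 chains had the same highest library in each group. AdKO library 1 held about as much C1q RNA as WT library 3, and the other AdKO libraries lay near or under the lowest control. The sum of the 3 chains was 66.1, 25.1 and 24.4 CPM in AdKO, against 43.1, 28.3 and 62.6 CPM in WT. The log2 fold changes were -0.12 ± 0.48 for C1qa, -0.19 ± 0.44 for C1qb and -0.36 ± 0.37 for C1qc (SE; edgeR adjusted p = 0.790 to 0.962).

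MHC class II genes showed no difference in mean beyond the spread between libraries. Cd74, the invariant chain that guides class II molecules to the endosome, stood at 86.4, 44.9 and 47.2 CPM in AdKO libraries 1 to 3, against 51.6, 47.1 and 98.6 CPM in WT libraries 1 to 3. H2-Aa, an alpha chain, stood at 39.7, 17.4 and 20.6 CPM in AdKO, against 23.3, 19.7 and 37.0 CPM in WT. H2-Eb1, a beta chain, stood at 69.6, 31.1 and 37.9 CPM in AdKO, against 34.8, 31.2 and 56.7 CPM in WT. In each of these genes 1 library of each group, AdKO library 1 and WT library 3, stood well above the other 4, which lay close together. H2-Ab1, the beta chain partner of H2-Aa, stood at 41.1, 21.5 and 16.7 CPM in AdKO, against 20.8, 21.2 and 42.4 CPM in WT, with the same highest library in each group (log2 fold change -0.09 ± 0.39, SE). The other estimates were -0.14 ± 0.34 for Cd74, -0.04 ± 0.35 for H2-Aa and 0.18 ± 0.33 for H2-Eb1 (SE; edgeR adjusted p = 0.900 to 0.981 for the 4 genes). The 95% interval of H2-Aa ran from -0.84 to 0.76, so changes within those bounds remained compatible with these data (3 libraries a group). The class II sum was 158 ± 68.3 CPM in AdKO and 161 ± 63.7 CPM in WT (SD, n = 3 each).

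Among the monocyte and chemokine genes, Ccr2 and Cx3cr1 were low, and Ccl6 was higher. Ccr2, the receptor through which monocytes follow CCL2 out of the marrow, stood at 1.98, 1.93 and 1.96 CPM in AdKO, against 2.07, 1.95 and 4.43 CPM in WT. The log2 fold change was -0.51 ± 0.37 (SE; edgeR adjusted p = 0.679), and -0.063 without WT library 3, the only high library. Cx3cr1, the fractalkine receptor of patrolling monocytes and some tissue macrophages, stood at 0.814, 0.848 and 0.986 CPM in AdKO, against 1.00, 0.633 and 2.08 CPM in WT. It too was highest in WT library 3. Ccl6, a chemokine of mouse macrophages, stood at 6.98, 1.50 and 2.32 CPM in AdKO, against 6.37, 5.36 and 9.63 CPM in WT. AdKO library 1 lay among the controls and the other AdKO libraries lay below them all (log2 fold change -0.99 ± 0.53, SE; edgeR adjusted p = 0.563).

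**Figure D3:**
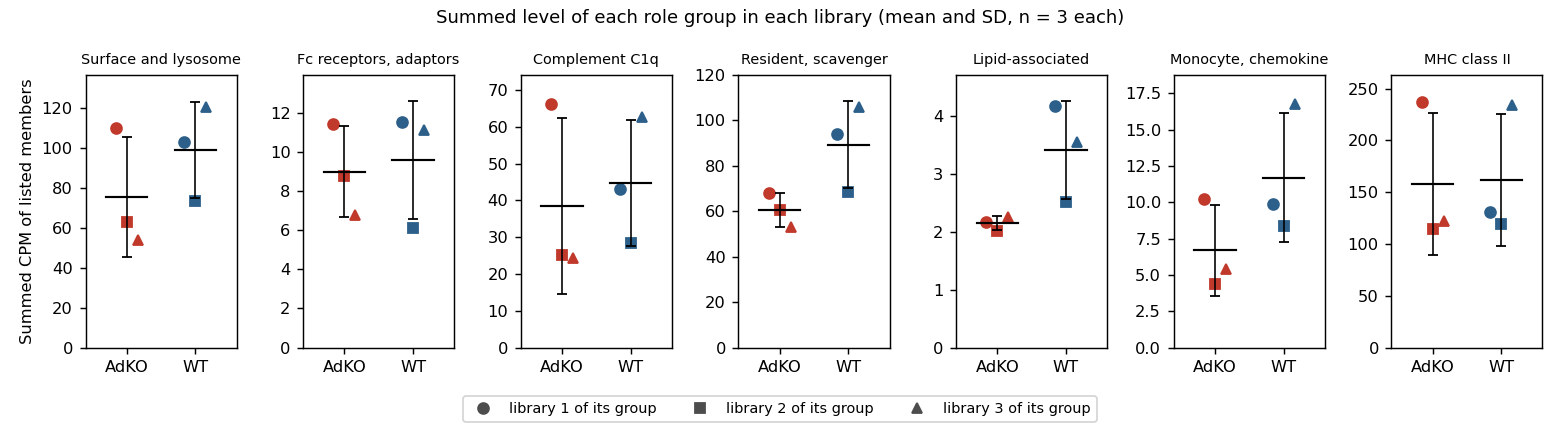
Summed CPM (y axes, each from 0) of the listed members of each of 7 role groups in AdKO and WT libraries; symbols mark library 1, 2 or 3 of its group, lines the mean and bars the SD (n = 3 each). AdKO and WT do not overlap for the resident and scavenger sum (53.0 to 67.9 against 68.4 to 105.9 CPM) and the lipid-associated sum, and overlap in the other groups. Stab1, whose own groups overlap, is the largest part of the resident and scavenger sum in each library. Without Stab1 that sum overlaps between AdKO and WT.

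The 6 members too low to test were Itgax, Timd4, Cd5l, Vsig4, Trem2 and Ccl8, none with more than 14 counts in a library. Itgax, the dendritic cell and inflammatory macrophage integrin CD11c, had 17 counts over the 3 AdKO libraries and 20 over the 3 WT libraries. Timd4, a phosphatidylserine receptor of long-lived resident macrophages, had 7 in AdKO and 20 in WT. Cd5l, a secreted scavenger protein of macrophages, had 9 in AdKO and 12 in WT. Vsig4, a complement receptor of resident macrophages, had 3 in AdKO and 13 in WT, and Ccl8, a chemokine for monocytes and other leukocytes, 12 in AdKO and 25.1 in WT. At this depth these genes do not show whether the genotypes differ. Of the 33 tested, 31 were over the low-count limit in all 6 libraries, and Aif1 and Fcgr1 were over it in 2 AdKO and 3 WT libraries.

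Per kilobase of exon, Cd74, Lyz2 and H2-Eb1 were the most abundant members, while H2-Ab1 and H2-Aa lay below C1qa and C1qb. On this scale Cd74 was the highest (35.4 CPM per kb in AdKO and 39.1 in WT), followed by Lyz2 (24.2 and 31.3), H2-Eb1 (23.8 and 21.0), C1qa (14.6 and 15.8) and C1qb (11.7 and 13.4). The resident receptors were far lower, at 1.17 in AdKO and 2.62 in WT for Cd163 and 1.26 and 2.24 for Mrc1, and Vsig4 was the lowest in AdKO (0.0413). In all, the 39 members summed to 504, 279 and 268 CPM in AdKO libraries 1 to 3, against 396, 306 and 555 CPM in WT libraries 1 to 3. MHC class II genes made up 47.0%, 41.2% and 45.7% of that sum in AdKO, against 32.9%, 38.9% and 42.3% in WT. Resident genes per 100 CPM of class II genes stood at 28.7, 52.8 and 43.3 CPM in AdKO, against 72.0, 57.4 and 45.1 CPM in WT. The ratio overlapped between the groups, and no test of a difference between the role groups was made. Stab1, which endothelial cells can also express, was the largest part of the resident sum in each library.

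These genes also spread widely between libraries of a genotype. In 29 of the 33 tested members AdKO library 1 was the highest of the AdKO libraries, as it was for 45.5% of all genes. In 27 of 33 WT library 2 was the lowest of the WT libraries, as it was for 29.1% of all genes. AdKO library 3 was the lowest of all 6 libraries in 17 members and AdKO library 2 in 13, and WT library 2 in the other 3. Relative to the WT mean, the median member deviated by 0.21, -0.56 and -0.64 in AdKO libraries 1 to 3 (log2 of CPM + 0.5), and by 0.11, -0.36 and 0.35 in WT libraries 1 to 3.

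**Figure D4:**
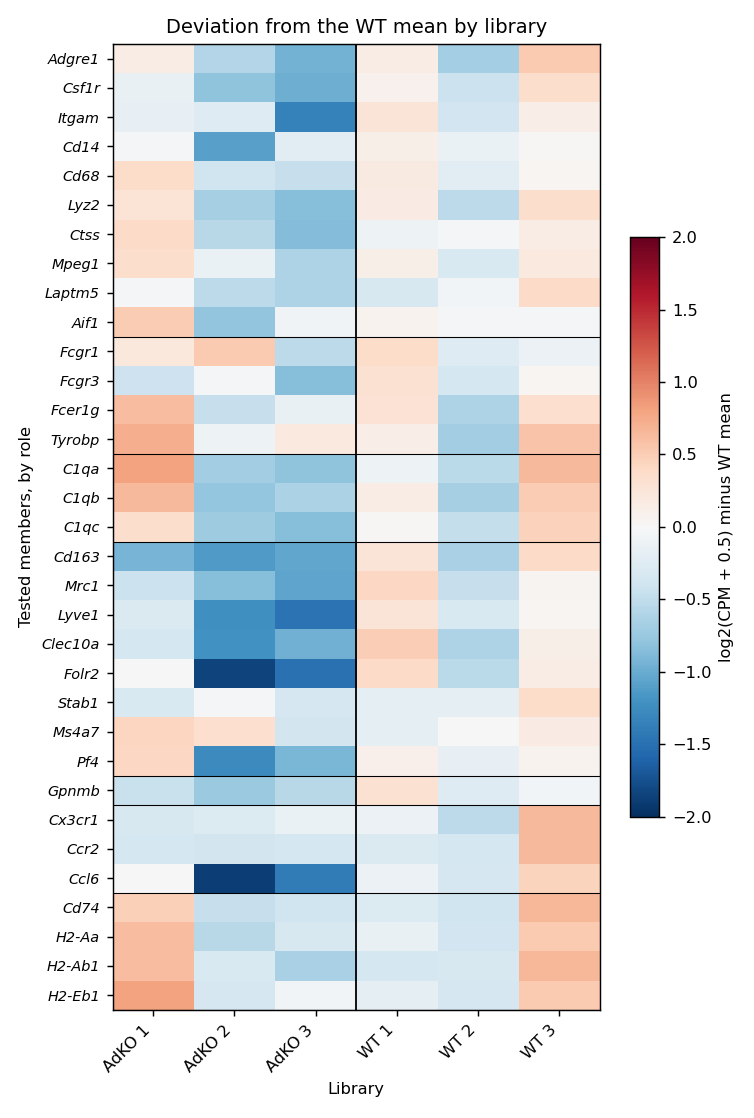
Deviation from the WT mean, as log2(CPM + 0.5) (colour, red above and blue below), of the 33 tested members (rows, by role, separated by lines) in the 3 AdKO and 3 WT libraries (columns). AdKO libraries 2 and 3 are below the WT mean in 31 and 32 of 33 members, AdKO library 1 in 14 and WT library 2 in 32. Cd163 is blue in all AdKO libraries, as are other members such as Mrc1, Lyve1, Csf1r and Gpnmb. It is also blue in WT library 2.

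Without AdKO library 1, more members separated. That library held the most muscle RNA of its group. It was also the highest AdKO library in 29 of the 33 members tested with all libraries. Leaving it out therefore lowers the AdKO mean of those members. AdKO libraries 2 and 3, which remain, held 0.0724% and 0.00703% muscle marker counts, against 1.69% to 2.23% in WT. Muscle content and genotype cannot be told apart in this fit. Then 7 of 34 tested members were called lower and 0 higher (20.6% lower), where 5.35% of all genes were called lower and 0.296% higher. These were Ccl6, Folr2, Lyve1, Csf1r, Pf4, Mrc1 and Cd163. Ccl6 was at -1.89 ± 0.34 (SE; edgeR adjusted p = 0.00797), Folr2 at -2.11 ± 0.40 (adjusted p = 0.0121) and Lyve1 at -1.67 ± 0.34 (adjusted p = 0.0163). Csf1r, Pf4, Mrc1 and Cd163 had adjusted p between 0.0444 and 0.0471 in the same fit. The C1q chains were then near -0.86 (C1qa), -0.81 (C1qb) and -0.86 (C1qc; adjusted p = 0.113 to 0.208, edgeR), and Cd74 was at -0.51 ± 0.28 (SE; adjusted p = 0.419). Leaving out any other single library gave 0 called members.

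With the log2 share of muscle markers as a covariate the median member turned positive, at 0.30, and no member was called. Cd163 stayed near its value, at -1.09 (edgeR adjusted p = 0.293), as did Gpnmb, at -0.62, whereas Mrc1 was at -0.41, Csf1r at -0.13 and Lyve1 at -0.20. C1qa (0.79), C1qb (0.58), C1qc (0.36), Cd74 (0.35), H2-Aa (0.51), H2-Ab1 (0.62) and Itgam (0.20) were then positive, without passing. Muscle RNA and genotype moved together here, as each AdKO library had less of it than each WT library.

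Among the regulators of macrophages, the transcription factor Maf stood lower in AdKO. Of 14 listed growth and lineage factors, all tested, 0 were called, 8 had negative and 6 positive estimates (median -0.03), and 4 were lower at an unadjusted p under 0.05 (7.60% of all genes were). Maf, which acts in macrophages and in other cell types, stood at 24.5, 9.05 and 8.33 CPM in AdKO, against 41.1, 36.8 and 31.2 CPM in WT. All AdKO libraries lay below all WT libraries (log2 fold change -1.39 ± 0.39, SE; edgeR adjusted p = 0.282).

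Of 12 genes linked to alternative activation, 10 were tested, 0 were called, and 6 had negative estimates (median -0.26). Igf1, a growth factor made by resident macrophages and also by adipocytes and their progenitors, stood at 8.20, 7.17 and 7.01 CPM in AdKO, against 21.4, 14.2 and 16.6 CPM in WT. The groups did not overlap, and the log2 fold change was -1.22 ± 0.19 (SE; edgeR adjusted p = 0.0919). Arg1, the enzyme arginase 1, stood at 1.76, 1.56 and 1.25 CPM in AdKO, against 3.95, 3.00 and 2.90 CPM in WT, also without overlap (log2 fold change -1.10 ± 0.28, SE; edgeR adjusted p = 0.226).

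Of 15 inflammatory genes, 7 were tested and 0 called (median -0.14), and Il6 had 0 counts in all 6 libraries, while Tnf and Il1b were too low to test. Socs3, an inhibitor of cytokine signalling, stood at 3.05, 1.11 and 1.07 CPM in AdKO, against 2.71, 4.84 and 6.44 CPM in WT, with an overlap at AdKO library 1 (edgeR adjusted p = 0.364). Tlr2, a receptor for bacterial lipoproteins, was at -1.01 ± 0.47 (SE; edgeR adjusted p = 0.510). Tlr2 passed the low-count limit in 1 AdKO and 3 WT libraries, so it was tested only through its WT level. The class II machinery was centred near 0: of 13 genes 11 were tested, 6 negative and 5 positive (median -0.05), with 0 called. Its members with the smallest p were H2-Ob (-0.72 ± 0.58, SE) and H2-DMa (0.30 ± 0.32, SE), both parts of the peptide-loading system.

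Of 12 monocyte chemokines, 6 were tested and 0 called (median -0.28). Ccl9, a chemokine of macrophages in mice, stood at 2.80, 2.23 and 0.980 CPM in AdKO, against 6.45, 3.20 and 4.69 CPM in WT, without overlap (log2 fold change -1.26 ± 0.41, SE; edgeR adjusted p = 0.336). Ccl2, the main attractant of monocytes, was at most 1.61 CPM in any library. Of 20 phagocytosis genes, 17 were tested and 0 called, 14 with negative estimates (median -0.29). Dock2, an activator of leukocyte movement, stood at 1.69, 0.782 and 1.01 CPM in AdKO, against 2.47, 2.75 and 3.59 CPM in WT (edgeR adjusted p = 0.254), and the lectin Cd209f was at -1.39 ± 0.47 (SE; edgeR adjusted p = 0.353). Of 14 genes of macrophage lipid handling, 13 were tested, 8 negative and 5 positive (median -0.02), and 0 were called. In this list Spp1, the secreted protein osteopontin, was at -1.34 ± 0.49 (SE), and Ctsb, the lysosomal protease cathepsin B, at 0.28 ± 0.12 (SE), neither past the threshold.

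Marker levels of other cell types also varied between the libraries, with 0 markers called in any list. All 10 fibroblast markers had negative estimates (median -0.80), and their sum was 310 to 513 CPM in AdKO and 548 to 829 CPM in WT, without overlap. Col1a1, a fibrillar collagen chain, was at -0.98 ± 0.21 (SE; edgeR adjusted p = 0.156) and Dpp4, a surface peptidase of progenitors, at -1.64 ± 0.36 (SE; adjusted p = 0.166). Of 10 pan-leukocyte genes 9 had negative estimates (median -0.54), with sums of 22.8 to 35.4 CPM in AdKO and 37.3 to 41.6 CPM in WT. Lcp1, the actin-bundling protein of leukocytes, stood at 8.43, 9.04 and 6.25 CPM in AdKO, against 13.6, 12.3 and 13.0 CPM in WT, without overlap (edgeR adjusted p = 0.226), and Cd53, a tetraspanin of leukocytes, was at -0.74 ± 0.32 (SE). The fibroblast and leukocyte sums were thus lower in AdKO, as was the resident macrophage sum, whose separation rests on Stab1. The part of the fibroblast and leukocyte markers in the resident difference was not tested. The pan-leukocyte list is not separate from macrophages, which are leukocytes too.

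Of 18 lymphocyte markers 4 were tested, and the sum of all 18 was 10.8 to 13.2 CPM in AdKO and 19.2 to 23.0 CPM in WT. Most of that difference was Ighm, the immunoglobulin mu chain, at 9.75, 6.16 and 6.78 CPM in AdKO, against 16.7, 15.6 and 13.4 CPM in WT (log2 fold change -1.01 ± 0.21, SE; edgeR adjusted p = 0.148), and Cd4 was at -1.17 ± 0.60 (SE). Cd4 passed the low-count limit in 0 AdKO and 3 WT libraries, so it was tested only through its WT level and its estimate says nothing of lymphocytes as a whole. B cells also express the class II genes. Of 10 neutrophil markers 2 were tested (Csf3r at -0.12 and Mmp9 at -0.14), and Camp and Ngp had 0 counts in all libraries. The sum of all 10 was 2.46 to 6.19 CPM in AdKO and 2.53 to 5.74 CPM in WT. Of 10 dendritic cell genes 4 were tested (median 0.14), among them Irf4 (-0.35), which brown adipocytes also express, and Zbtb46 (0.20), which endothelial cells also express. The sum of all 10 was 27.2 to 34.0 CPM in AdKO and 27.2 to 33.6 CPM in WT. Of 8 mast cell genes 6 were tested (median -0.79), 4 with negative and 2 with positive estimates. Among the negative ones, Mcpt4 and Cma1 passed the low-count limit in 1 AdKO and 3 WT libraries each, and Tpsb2 in 0 and 3. The median thus leans on genes tested only through their WT level and says nothing of mast cells as a whole. The sum of all 8 was 17.9 to 23.9 CPM in AdKO and 13.6 to 22.0 CPM in WT. Its largest parts, Kit (mean 11.95 CPM in AdKO and 8.48 in WT) and Hdc, had the 2 positive estimates. Tpsb2, a mast cell tryptase, stood at 0.474, 0.261 and 0.594 CPM in AdKO, against 1.83, 1.44 and 2.56 CPM in WT (edgeR adjusted p = 0.148), and passed the low-count limit in 0 AdKO and 3 WT libraries, so it was tested only through the group where it is high. The histamine-forming enzyme Hdc was at 0.58 ± 0.21 (SE).

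Blood endothelial genes were centred near 0 (median 0.04 over 10 tested), with sums of 750 to 888 CPM in AdKO and 699 to 897 CPM in WT; Vwf was at -0.47 ± 0.19 (SE) and Emcn at 0.23 ± 0.16 (SE). Among the lymphatic markers Prox1 was at -1.75 ± 0.79 and Reln at -0.64 ± 0.37 (SE). All 10 brown adipocyte genes had positive estimates (median 0.27), Ucp1 at 0.34 ± 0.09 (SE; edgeR adjusted p = 0.235) and Elovl3 at 0.33 ± 0.12 (SE; adjusted p = 0.387) among them. All 20 muscle genes had negative ones (median -2.42), with Myl1 at -2.05 ± 0.79 and Myh1 at -3.18 ± 1.27 (SE).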

How the data were processed

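The libraries were polyA-selected and paired-end (NEBNext Ultra II, per the labels' protocols). The depot, replicate number and cold exposure follow the sample labels and not the design text of the series. Estimated counts per gene, not normalized, were deposited by the authors for 6 libraries. The submitters' processing notes name Salmon, StringTie, edgeR and GRCm38; versions, annotation and strand use were not given in the sources used here. Columns were matched to samples by the names in the labels. Symbols, positions and exon lengths came from GENCODE vM21 (GRCm38; 54131 of 54385 identifiers had a symbol), promoters from RefSeq.

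Estimated counts were rounded, filtered with filterByExpr (minimum count 10, total 15), TMM-scaled and tested for genotype, two-sided and with no covariate, by glmQLFit and glmQLFTest (edgeR 4.0.16, R 4.3.3; threshold an adjusted p under 0.05). The common biological coefficient of variation was 25.2%. CPM used TMM-scaled library sizes, in which 3 counts correspond to 0.172 to 0.203 CPM. Standard errors are the unshrunken log2 fold change over the root of F. CPM per kb divides by the union of annotated exons. The labels number the replicates without stating separate animals, and p-values therefore measure only how these samples vary. No pair within a group looked like repeats of 1 library (chi-square per degree of freedom 10.8 to 60.9). The fit was also run on simulated data with the same dispersion for every gene and no outlying library, which does not measure its error rate in these libraries.

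Members and lists were chosen with earlier results of these data known. Values per library were given for called members, for the 3 members of each role group with the smallest p (all in groups of up to 4), and for up to 2 genes per other list (1 of these genes is not reported here); Adgre1, Lyz2, Clec10a, Folr2 and Pf4 and the remaining members were added to account for the whole list. Tried as alternatives were edgeR with RLE or upper-quartile scaling, the DESeq2 1.42.0 Wald test, limma-voom (limma 3.58.1), dropping the low-count filter or requiring 1 CPM in 3 libraries, a replicate block, leaving out each library, scaling without the 10 most abundant genes, the muscle covariate and, chosen after seeing the data, a length and GC correction. Exons of 6 members overlap another gene (Cd74, Csf1r, Cx3cr1, Folr2, Itgam and Stab1). The other gene is on the opposite strand for Csf1r (Hmgxb3), Cx3cr1, Folr2 and Stab1, where reads cannot be assigned without strand. The longest overlap of a single exon pair was 873 bases for Csf1r and 474 bases for Folr2. The MHC class II and Fc receptor genes have close relatives, between which estimated counts are uncertain.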

Additional observations from a re-analysis of the deposited data

How the results depend on the processing

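Members called lower numbered 0 in the edgeR test, 1 with DESeq2 (Cd163) and 4 without a low-count filter (Cd163, Mrc1, Folr2 and Ccl6, with 2.45% of all genes called lower), and 0 to 7 when each library was left out, the 7 coming without AdKO library 1; 0 were called higher in every setting run. Of all genes, 4 were called higher and 5 lower, against 31 and 276 with DESeq2, 27 lower with limma-voom, 111 and 782 without the filter, 2 and 2 with the replicate block, 8 higher with the muscle covariate and 3 lower with the length and GC correction. Leaving out each library gave 3 to 45 higher and 1 to 812 lower, the upper ends without AdKO library 1. The members' median was -0.37, and 0.30 with the muscle covariate, -0.30 with the length and GC correction (where the median of all genes was 0.15) and -0.71 to -0.16 when a library was left out. The cause of these shifts was not tested.

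Same-numbered libraries correlated at 0.08 to 0.11 in their deviations, so the numbers were not taken as pairs, although all 6 libraries correlated best with their own number. The replicate block gave a members' median of -0.41 and 0 calls, and Fcer1g was at -0.0064; it was at -0.021 with the most abundant genes left out of scaling.

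Some estimates changed sign, Itgam (-0.64) and C1qc (-0.36) among them. With the muscle covariate these turned positive: C1qa (0.79), C1qb (0.58), C1qc (0.36), Cd74 (0.35), H2-Aa (0.51), H2-Ab1 (0.62) and Itgam (0.20), and with the length and GC correction H2-Aa (0.042) and H2-Ab1 (0.014). When a library was left out, C1qa ran from -0.86 to 0.24, C1qb from -0.81 to 0.065, Cd74 from -0.51 to 0.23, H2-Aa from -0.48 to 0.23, H2-Ab1 from -0.55 to 0.29 and H2-Eb1 from -0.24 to 0.44. Fcer1g ran from -0.44 to 0.25, Fcgr1 from -0.22 to 0.49, Tyrobp from -0.072 to 0.65 and Cx3cr1 from -0.79 to 0.10. Cd163, Mrc1, Lyve1, Csf1r, Gpnmb, Ccl6, Ccr2, C1qc, Fcgr3 and Laptm5 stayed negative in every such fit. Of 335 alternative values of the 21 members shown, 292 kept direction and side of the threshold, 34 changed sign and 9 passed it. Depth limits the low members: those untested had at most 14 counts in a library.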
